A study of Homo sapiens with 6 samples.

Results

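The genes described here are 38 genes of the amino acid and endoplasmic reticulum (ER) stress pathways, chosen by gene symbol from the 26490 symbols of a count table. RNA-seq was used to measure them in SW403 cells, a long-established line of a human colon adenocarcinoma. The design compares 3 control libraries, labelled wild type and marked NS, with 3 libraries from cells in which IRS2 was knocked down, marked KO. Both groups were grown for 24 h in DMEM with fetal bovine serum and received no treatment. The sources used here give neither the meaning of NS, nor how IRS2 was lowered, nor whether each line is a single clone. The sample titles call the 3 libraries of each group biological replicates, and the p-values measure the spread between them. All 38 genes were found and all passed the low-count filter, among 13832 genes tested.

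When amino acids run short or unfolded proteins gather in the ER, sensor kinases phosphorylate the initiation factor eIF2. General protein synthesis then slows while translation of the transcription factor ATF4 increases, and ATF4 induces genes for amino acid synthesis, amino acid uptake and stress control. The ER has 2 further sensors: ERN1 (IRE1), which splices XBP1 mRNA, and ATF6, which is cut to release a transcription factor. XBP1 and ATF6 raise the chaperones and degradation factors of the ER. ATF4 is controlled largely at translation, and in growing cells insulin and mTORC1 signalling can also raise its synthesis, so its mRNA is not a measure of its protein. The 38 genes comprised 23 of the ATF4 type, 11 of the ER type (XBP1 and genes of ER folding and degradation) and the 4 stress sensors EIF2AK3 (PERK), EIF2AK4 (GCN2), ATF6 and ERN1.

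Promoter sequences are shown for members that carry the textbook response elements, so that the letters searched for can be seen in place. RefSeq windows of 300 bases (250 before and 50 after the start site, GRCh38.p14) were found for 35 of the 38 members. The C/EBP-ATF response element (CARE), searched as TGATGNAA on both strands, was found in 7 members, 6 of the ATF4 type and HERPUD1. Over the whole table it was in 3.62% of windows, and 4.46% of genes had it in at least 1 window. The ER stress response element (ERSE), searched as CCAAT and CCACG with 9 bases between them on both strands, was found in 5 members, all of the ER type (CALR, CANX, CRELD2, PDIA6 and XBP1), against 0.0769% of all windows and 0.0916% of genes. ERSE-II, searched as ATTGG and CCACG with 1 base between them, was found in HERPUD1 and SDF2L1, against 0.0541% of windows and 0.0696% of genes. UPRE, the letters TGACGTGG, was found among members only in ALDH18A1, against 0.729% of windows and 0.927% of genes. UPRE read on the other strand begins with CCACG and can therefore overlap an ERSE. The 35 members had 54 windows and all 27305 genes 35116, so members had more windows each, and a match describes the letters only. Each line below is 5′ to 3′ on the strand of the gene, with the matched letters in capitals.

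ASNS, CARE at -68 to -61 from the start site, minus strand, chr7:97872449-97872496: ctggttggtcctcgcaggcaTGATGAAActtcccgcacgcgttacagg
SLC1A5, CARE at -97 to -90, minus strand, chr19:46784884-46784931: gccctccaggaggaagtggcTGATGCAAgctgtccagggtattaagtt
CEBPG, CARE at -42 to -35, plus strand, chr19:33374051-33374098: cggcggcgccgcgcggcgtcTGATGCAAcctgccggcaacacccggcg
CHAC1, CARE read on the other strand at -209 to -202, plus strand, chr15:40953242-40953289: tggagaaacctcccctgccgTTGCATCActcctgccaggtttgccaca
HERPUD1, CARE read on the other strand at -176 to -169, plus strand, chr16:56931946-56931993: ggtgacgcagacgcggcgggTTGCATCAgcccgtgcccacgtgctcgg
HERPUD1, ERSE-II at -117 to -107, plus strand, chr16:56932005-56932055: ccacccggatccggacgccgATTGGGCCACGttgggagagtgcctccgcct
PDIA6, ERSE at -86 to -68, minus strand, chr2:10812833-10812891: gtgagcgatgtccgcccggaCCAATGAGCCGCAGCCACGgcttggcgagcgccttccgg
XBP1, ERSE at -52 to -34, minus strand, chr22:28800583-28800641: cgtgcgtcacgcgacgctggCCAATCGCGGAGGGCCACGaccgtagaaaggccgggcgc
CRELD2, ERSE read on the other strand at -80 to -62, plus strand, chr22:49918534-49918592: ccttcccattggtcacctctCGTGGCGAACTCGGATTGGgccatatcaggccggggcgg

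The remaining CARE matches lay after the start site, at 7 to 14 in SLC7A1 and at 37 to 44 in SLC3A2. With only the 250 bases before the start site searched, 5 members held a CARE against 3.14% of windows and 3.89% of genes, and the ERSE and ERSE-II counts were again 5 and 2.

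IRS2, the targeted gene, was at 32.1, 34.6 and 31.8 CPM (counts scaled to library size by TMM factors) in the control libraries and at 13.1, 12.4 and 12.1 in the knockdown libraries, a 2.62-fold lower level (edgeR adjusted p 3.12e-11). Libraries held 11816973 to 12585013 counts in control and 14329348 to 18114656 in knockdown, so depth differed with the group. The 38 members together took 0.747% to 0.764% of the counts of a library. Their coefficient of variation between replicates had a median of 3.24% in control and 3.51% in knockdown, and was highest for CHAC1 (19.3% and 25.2%). Among colon epithelium markers, EPCAM, CDX2, KRT8, KRT18 and VIL1 were expressed. EPCAM was at 38.7, 39.5 and 41.3 CPM in control and lower, at 32.8, 34.1 and 35.9, in knockdown (edgeR adjusted p 0.00581). CDX2 was at 74.7, 77.4 and 78.8 CPM in control and higher, at 81.5, 85.9 and 86.5, in knockdown (edgeR adjusted p 0.0148). KRT8, KRT18 and VIL1 did not pass. The markers CDX1, KRT20, LGALS4, CDH1, CDH17 and GPA33 were at or near 0 in both groups. The 10 markers of other cell types summed to 8.71 to 24.7 CPM in control and 5.86 to 8.09 CPM in knockdown. PECAM1 and ALB had no counts, and PTPRC and CD3E were near 0. COL1A1, a collagen gene of fibroblasts, was at 15.2, 5.70 and 5.60 CPM in control and at 4.29, 3.67 and 4.04 CPM in knockdown (edgeR adjusted p 0.0029). COL1A2, too low to be tested, was at 6.76, 0.871 and 0.251 CPM in control and at 0.563, 0.0592 and 0.449 CPM in knockdown. Both collagen genes were highest in control replicate 1. The part of these differences in the results below was not tested.

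Of the 38 members, 21 had an adjusted p under 0.05 (edgeR's quasi-likelihood F-test), 12 higher and 9 lower in knockdown, which is 55.3% against 38.5% of all tested genes. By direction the background was 19.3% higher and 19.2% lower. Among the 27 members with a mean of at least 500 counts, 15 passed (55.6%), against 46.3% of all genes that abundant. Of these members 33.3% were higher and 22.2% lower, against 28.6% and 17.7% of all genes that abundant. Most changes were small: the median absolute log2 fold change of the members was 0.14, the same as over all tested genes, and EDEM1 and DDIT4 were the only members past the threshold that moved by at least 0.5. No member changed 2-fold. The groups did not overlap for 23 members (60.5%), against 47.6% of all tested genes. At a mean of at least 500 counts these shares were 63% and 53.9%.

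By type, of the 23 ATF4-type genes, 8 were lower and 5 higher past the threshold, with a median log2 fold change of -0.05. Without control replicate 2, 5 were lower and 3 higher, and without knockdown replicate 1, 5 were lower. Of the 11 ER-type genes, 4 were higher and 1 lower, with a median of 0.064, or 0.096 without knockdown replicate 1. Of the 4 sensors, 3 were higher and 0 lower, with a median of 0.27, and the fourth, EIF2AK4, missed the threshold. The median over all tested genes was -0.004. Past the threshold were 56.5% of ATF4-type genes, 45.5% of ER-type genes and 75% of sensors, against 38.5% of all tested genes. These counts are descriptions, and the difference between the types was not tested. In bulk RNA, a change in the share of cells that express a gene and a change in the RNA of each cell cannot be told apart.

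**Figure D1:**
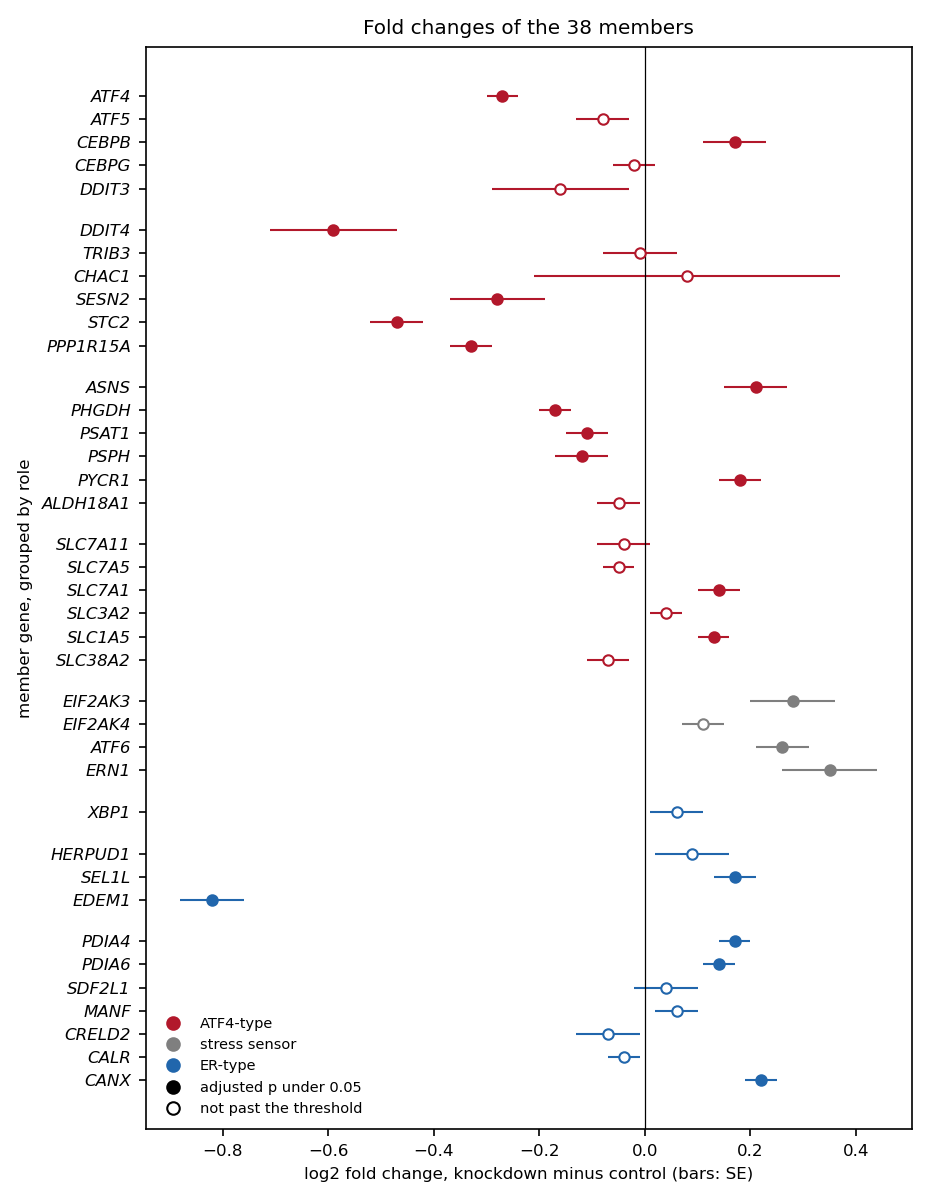
Log2 fold change of each of the 38 members (x axis, knockdown minus control) with its standard error, grouped by role and coloured by type; filled points passed an adjusted p of 0.05. EDEM1 (-0.82) and DDIT4 (-0.59) lie farthest to the left, and the 4 sensors all lie above 0.

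Among the transcription factors, ATF4 itself fell. ATF4 mRNA was at 281, 278 and 276 CPM in control and at 230, 227 and 235 CPM in knockdown. All 3 knockdown values lay below all 3 control values, a log2 fold change of -0.27 ± 0.03 (SE), or 17.2% less (edgeR adjusted p 1.12e-06). ATF4 lies on chromosome 22 (GRCh37, 39915700 to 39918688), where its canonical GENCODE transcript has 3 exons. The annotation also lists 4 pseudogene copies of ATF4, and how reads shared with copies were counted is not given in the sources used here.

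CEBPB, which encodes a C/EBP factor that can pair with ATF4, moved the other way. It was at 33.5, 32.8 and 30.1 CPM in control and at 34.5, 36.8 and 36.9 CPM in knockdown. These ranges were close but did not overlap (log2 fold change 0.17 ± 0.06 SE, edgeR adjusted p 0.0323). The CEBPB call was lost without control replicate 3 (0.13, edgeR adjusted p 0.133), control replicate 2 (0.0518), knockdown replicate 2 (0.104) or knockdown replicate 3 (0.0795). It was also lost in DESeq2's Wald test (adjusted p 0.161), with upper-quartile factors (edgeR adjusted p 0.0615) and with library size alone (0.0753). An antisense gene overlaps 12.6% of its exonic bases.

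DDIT3, which encodes the stress factor CHOP, did not differ past the threshold. Its level was low, at 8.65, 6.58 and 8.10 CPM in control and 6.47, 6.75 and 7.63 CPM in knockdown, with overlapping groups (log2 fold change -0.16 ± 0.13 SE, edgeR adjusted p 0.382). Exons of MARS1 on the opposite strand and of another gene on the same strand cover 35.9% of the exonic bases of DDIT3. The reads of DDIT3 are therefore uncertain. ATF5, another target and relative of ATF4, was at 65.2, 59.1 and 57.9 CPM in control and 54.8, 58.9 and 58.0 CPM in knockdown (edgeR adjusted p 0.217). CEBPG, the partner of ATF4 at many amino acid response elements, had a log2 fold change of -0.02 ± 0.04 (SE, edgeR adjusted p 0.788).

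The stress effectors held the largest falls of the ATF4 type: 4 of 6 fell and none rose. That is 66.7% past the threshold, against 38.5% of all tested genes. STC2, a secreted glycoprotein induced under ER stress, was at 100, 92.9 and 97.3 CPM in control and at 70.3, 65.7 and 73.0 CPM in knockdown. The groups lay well apart (log2 fold change -0.47 ± 0.05 SE, 28.1% less, edgeR adjusted p 1.86e-07). PPP1R15A (GADD34), the phosphatase subunit that reverses eIF2 phosphorylation, was at 79.4, 78.8 and 76.9 CPM in control and at 60.2, 62.5 and 63.7 CPM in knockdown. This fall was larger than the spread within either group (log2 fold change -0.33 ± 0.04 SE, edgeR adjusted p 5.80e-06).

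DDIT4 (REDD1), an inhibitor of mTORC1, was at 15.6, 18.4 and 14.0 CPM in control and at 9.64, 9.05 and 13 CPM in knockdown. Its knockdown replicate 3 came near the lowest control library, yet the groups did not overlap (log2 fold change -0.59 ± 0.12 SE, 33.8% less, edgeR adjusted p 0.000825). SESN2, a sestrin that senses leucine and restrains mTORC1, fell by 0.28 on the log2 scale (edgeR adjusted p 0.0196). The SESN2 call was lost without control replicate 1 (0.0542), control replicate 2 (0.0505) or knockdown replicate 1 (0.0637), and in DESeq2's Wald test (adjusted p 0.188).

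The effectors TRIB3, a pseudokinase that restrains AKT and ATF4, and CHAC1, which degrades glutathione, did not pass. TRIB3 was nearly level, at 26.9 ± 1.45 CPM in control against 26.7 ± 1.09 in knockdown (SD, n = 3 each), a log2 fold change of -0.01 ± 0.07 (SE). CHAC1 was barely expressed, at 1.03 to 1.49 CPM in control and 0.914 to 1.52 CPM in knockdown, and a difference was not detectable at this depth (log2 fold change 0.08 ± 0.29 SE).

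**Figure D2:**
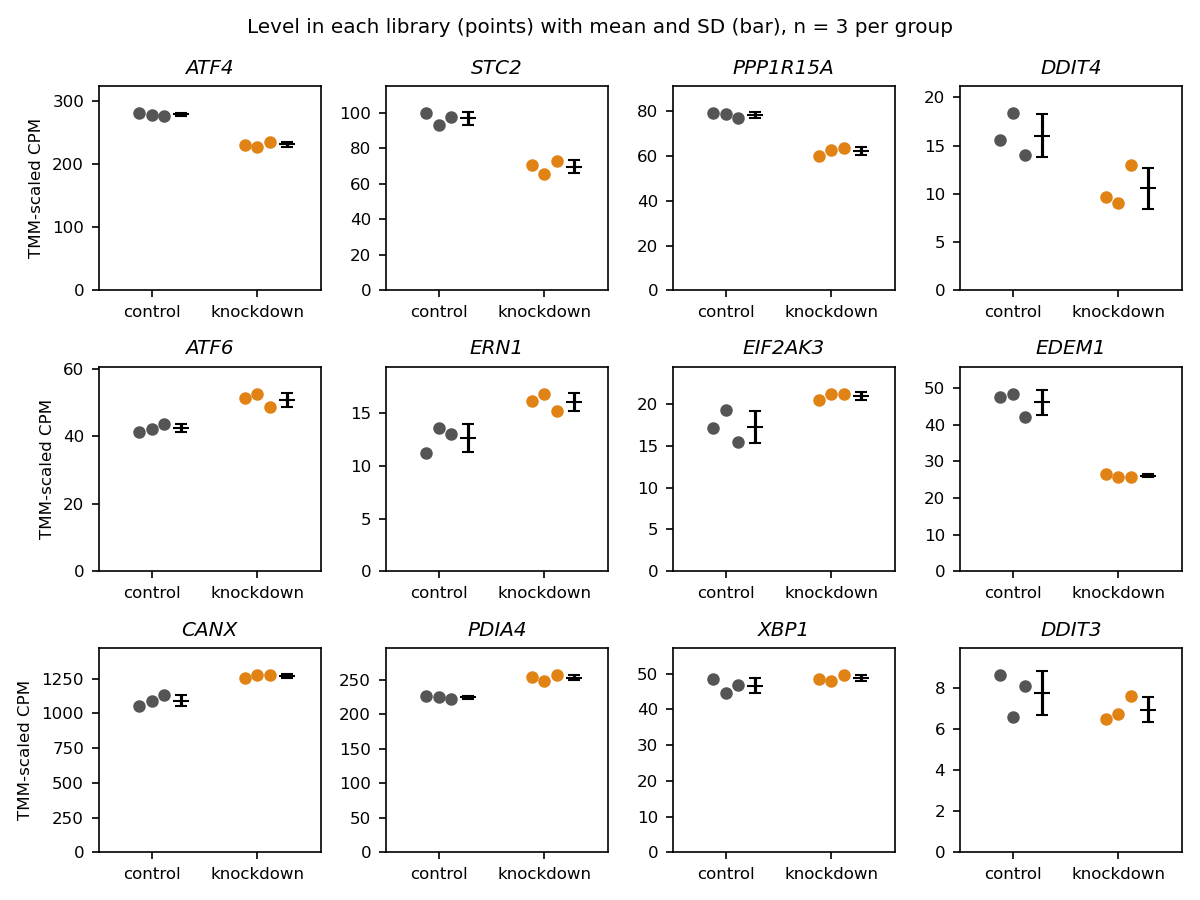
TMM-scaled CPM (y axis, from 0) of 12 members in each control and knockdown library; points are libraries and bars the mean with SD (n = 3). ATF4, STC2, PPP1R15A, DDIT4 and EDEM1 are lower in every knockdown library, ATF6, ERN1, EIF2AK3, CANX and PDIA4 are higher in each, and XBP1 and DDIT3 overlap.

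The 6 enzymes of amino acid synthesis did not share a direction. The 3 serine enzymes fell, while ASNS and PYCR1 rose. The share past the threshold was 83.3%, against 38.5% of all tested genes and 46.3% of those with a mean of at least 500 counts. PHGDH, the first enzyme of serine synthesis, was at 149, 149 and 147 CPM in control and at 132, 130 and 134 CPM in knockdown. The groups were clearly apart (log2 fold change -0.17 ± 0.03 SE, edgeR adjusted p 0.000846).

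PSAT1 and PSPH, the later serine enzymes, fell by 0.11 and 0.12 on the log2 scale, near the threshold (edgeR adjusted p 0.0278 and 0.0466). The PSAT1 call was lost in 4 of the 6 fits that each left out a library and the PSPH call in 5, with largest edgeR adjusted p-values of 0.120 for PSAT1 (without control replicate 2) and 0.178 for PSPH (without knockdown replicate 2). Both were lost in DESeq2's Wald test (adjusted p 0.117 for PSAT1 and 0.212 for PSPH), and PSPH also without a filter (edgeR adjusted p 0.0705). The annotation lists 4 pseudogene copies of PSAT1 and 1 of PSPH, so their counts are uncertain.

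PYCR1, which makes proline, was at 83.7, 84.7 and 88.8 CPM in control and at 93.8, 95.5 and 101 CPM in knockdown. Each knockdown value exceeded each control value (log2 fold change 0.18 ± 0.04 SE, edgeR adjusted p 0.0029), and a gene on the opposite strand overlaps 19.8% of its exonic bases. ASNS, asparagine synthetase and the classic carrier of the CARE printed above, was at 63.1, 51.3 and 54.4 CPM in control and at 62.0, 65.3 and 68.0 CPM in knockdown. The groups of ASNS overlapped through the first control library (log2 fold change 0.21 ± 0.06 SE, edgeR adjusted p 0.00959), and without control replicate 2 the call was lost (0.15, edgeR adjusted p 0.0794). The counts of ASNS are uncertain. Another annotated gene on the same strand shares 99.5% of its exonic bases, so strand cannot part their reads. The annotation also lists 5 pseudogene copies. ALDH18A1, which supplies proline synthesis upstream of PYCR1, did not pass (log2 fold change -0.05 ± 0.04 SE, edgeR adjusted p 0.261).

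Of the 6 amino acid transporters, 2 rose and none fell (33.3% past the threshold, below the 38.5% of all tested genes). SLC1A5 (ASCT2), the glutamine carrier, was the most abundant member per kilobase of transcript, at 470 CPM per kb in control. It was at 1373, 1362 and 1329 CPM in control and at 1471, 1467 and 1510 CPM in knockdown. This small rise of 9.44% was beyond the spread of the replicates (log2 fold change 0.13 ± 0.03 SE, edgeR adjusted p 0.000559), although genes on the opposite strand overlap 27.6% of its exonic bases.

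SLC7A1 (CAT1), which carries arginine and lysine, was at 205, 221 and 222 CPM in control and at 240, 242 and 231 CPM in knockdown. The groups did not overlap (log2 fold change 0.14 ± 0.04 SE, edgeR adjusted p 0.00424). SLC7A5 (LAT1), which brings leucine in, was at 921, 936 and 914 CPM in control and at 907, 879 and 888 CPM in knockdown. These groups were apart by little, and the difference did not pass (log2 fold change -0.05 ± 0.03 SE, edgeR adjusted p 0.137). It passed with upper-quartile factors (-0.07, 0.0434), with library size alone (-0.08, 0.0133) and when length and GC trends were removed (-0.08, 0.00289), and SLC7A5 has 2 pseudogene copies.

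The other transporters were SLC3A2 (CD98), the heavy chain that pairs with SLC7A5 and SLC7A11, the cystine carrier SLC7A11, and SLC38A2 (SNAT2), which takes up small neutral amino acids. Their log2 fold changes were 0.04, -0.04 and -0.07, and none passed the threshold.

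Of the 7 members whose windows held a CARE, ASNS, SLC1A5 and SLC7A1 rose, and CEBPG, CHAC1, HERPUD1 and SLC3A2 did not pass. For scale, 38.5% of all tested genes passed in either direction. None of the 4 effectors that fell had these letters in its window. ATF5, CEBPB and TRIB3, which did not fall, lacked them too. A CARE was rare, in 4.46% of all genes with a window, so its absence does not set the fallen effectors apart. Only these 7 members are concerned, and the letters were not tested against the fold changes.

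**Figure D3:**
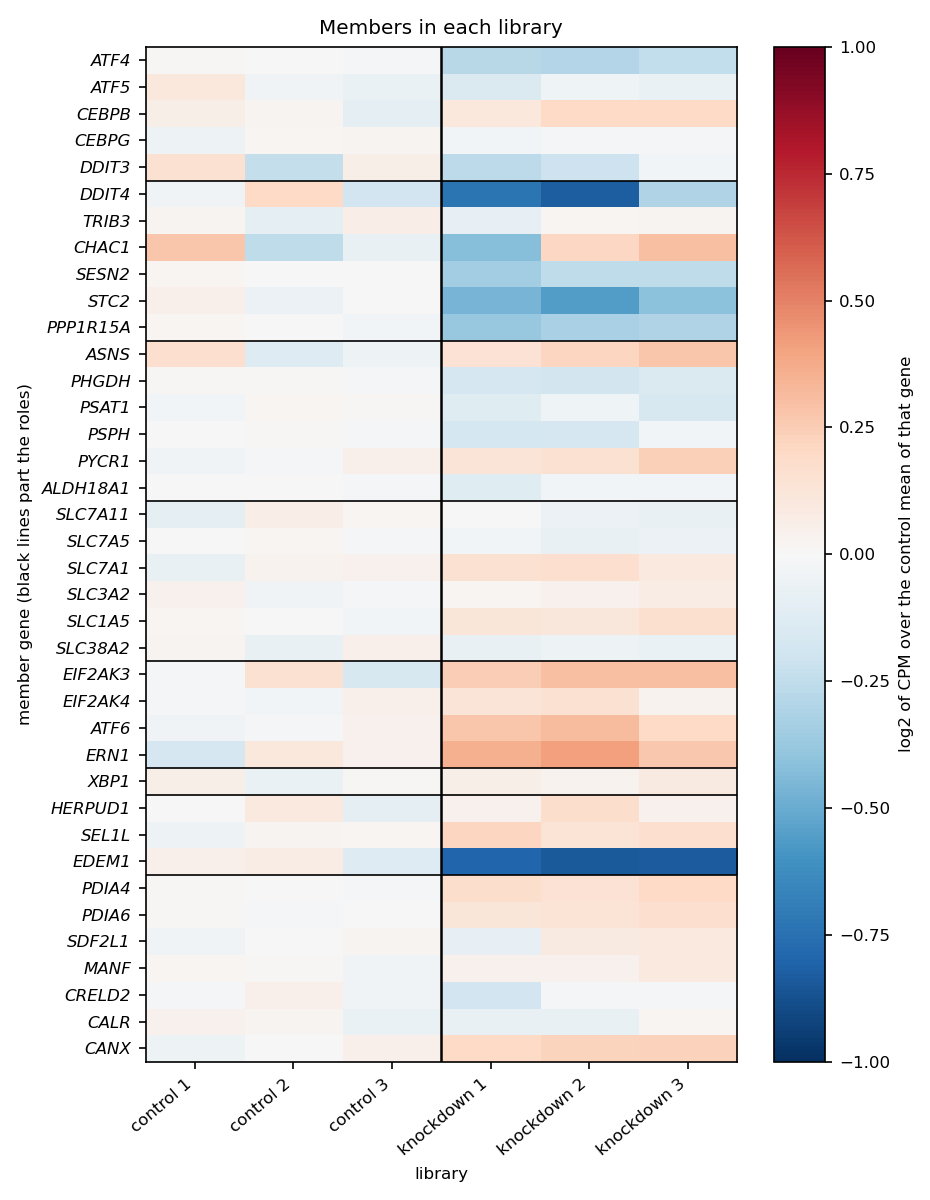
Each member (rows, black lines between roles) in each library (columns), as log2 of its CPM over its control mean, blue for lower and red for higher. EDEM1, STC2 and PPP1R15A are blue in all 3 knockdown libraries and the sensors ATF6, ERN1 and EIF2AK3 are red, while DDIT4 is less blue in knockdown replicate 3.

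The 3 sensors that act at the ER membrane all rose. ATF6 was at 41.3, 42.1 and 43.6 CPM in control and at 51.2, 52.6 and 48.6 CPM in knockdown. Its groups were separate, with a rise of 19.9% (log2 fold change 0.26 ± 0.05 SE, edgeR adjusted p 0.000478). ERN1, the kinase and nuclease that splices XBP1 mRNA, was at 11.2, 13.6 and 13 CPM in control and at 16.1, 16.8 and 15.2 CPM in knockdown. This gave the largest rise of any member, 27.0% (log2 fold change 0.35 ± 0.09 SE, edgeR adjusted p 0.00558).

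EIF2AK3 (PERK), the eIF2 kinase of the ER, was at 17.1, 19.2 and 15.4 CPM in control and at 20.4, 21.2 and 21.2 CPM in knockdown. Its knockdown libraries lay together just above the highest control library (log2 fold change 0.28 ± 0.08 SE, edgeR adjusted p 0.01). The EIF2AK3 call was lost without control replicate 3 (0.21, edgeR adjusted p 0.0596) and in DESeq2's Wald test (adjusted p 0.0731), and an antisense gene overlaps 17.2% of its exonic bases.

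EIF2AK4 (GCN2), the cytosolic kinase that senses uncharged tRNA, was at 112.2 ± 3.37 CPM in control against 120.8 ± 5.40 in knockdown (SD, n = 3 each). It missed the threshold narrowly (log2 fold change 0.11 ± 0.04 SE, edgeR adjusted p 0.052). It passed without control replicate 3 (edgeR adjusted p 0.0319) or knockdown replicate 3 (0.00766), and in thinned counts (0.0299), without a filter (0.022) and after the length and GC correction (0.0232).

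XBP1, the factor made active by ERN1, did not differ past the threshold. It was at 48.5, 44.5 and 46.9 CPM in control and at 48.6, 47.9 and 49.7 CPM in knockdown, with overlapping groups (log2 fold change 0.06 ± 0.05 SE, edgeR adjusted p 0.345). Counts per gene do not tell spliced from unspliced XBP1 mRNA, so its splicing was not measured.

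The 3 genes of ER-associated degradation went different ways. EDEM1, a lectin that hands misfolded glycoproteins to degradation, had the largest change and the smallest p of all 38 members. It was at 47.6, 48.4 and 42.0 CPM in control and at 26.6, 25.7 and 25.8 CPM in knockdown. The knockdown libraries were tightly grouped far below every control library, a fall of 43.5% (log2 fold change -0.82 ± 0.06 SE, edgeR adjusted p 5.26e-09). EDEM1 ranked 128 by p among all tested genes. It lies on chromosome 3 (GRCh37, 5229331 to 5261643) with 12 exons in its canonical transcript, and a gene on the opposite strand overlaps 9.68% of its exonic bases.

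SEL1L, the adaptor of the HRD1 ubiquitin ligase, rose. It was at 69.7, 73.5 and 73.2 CPM in control and at 83.7, 79.1 and 80.9 CPM in knockdown, with no overlap (log2 fold change 0.17 ± 0.04 SE, edgeR adjusted p 0.00429). HERPUD1, an ER membrane protein of the same machinery and the member with both a CARE and an ERSE-II, was at 24.1, 25.9 and 22.6 CPM in control and at 25.0, 27.4 and 24.9 CPM in knockdown. Its groups overlapped and it did not pass (log2 fold change 0.09 ± 0.07 SE, edgeR adjusted p 0.357).

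Of the 7 folding genes, 3 rose and none fell. That is 42.9% past the threshold, near the 38.5% of all tested genes. Among tested genes averaging 500 counts or more, the share was 46.3%. CANX, the membrane lectin chaperone calnexin, was at 1052, 1092 and 1130 CPM in control and at 1254, 1272 and 1278 CPM in knockdown. This rise of 16.2% was well beyond the replicate spread (log2 fold change 0.22 ± 0.03 SE, edgeR adjusted p 7.07e-06).

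PDIA4 and PDIA6 are protein disulfide isomerases. PDIA4 was at 226, 225 and 222 CPM in control and at 253, 248 and 257 CPM in knockdown (log2 fold change 0.17 ± 0.03 SE, edgeR adjusted p 0.000202). PDIA6 was at 463, 456 and 457 CPM in control and at 498, 503 and 516 CPM in knockdown (log2 fold change 0.14 ± 0.03 SE, edgeR adjusted p 0.000584). Both genes were higher in every knockdown library than in any control library, but exons of ATP6V1C2 on the opposite strand overlap 45.3% of the exonic bases of PDIA6.

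The soluble relative of calnexin, CALR (calreticulin), did not follow CANX past the threshold: it was at 631 ± 25.9 CPM in control against 612 ± 23.6 in knockdown (SD, n = 3 each), and its log2 fold change was -0.04 ± 0.03 (SE, edgeR adjusted p 0.350). The difference between CANX and CALR was not tested. SDF2L1, a cofactor of ER chaperones, MANF, a secreted protein released under ER stress, and CRELD2, an ER disulfide isomerase, had log2 fold changes of 0.04, 0.06 and -0.07, none past the threshold. Of the 5 members with an ERSE, CANX and PDIA6 rose, and CALR, CRELD2 and XBP1 did not pass. That is near the 38.5% of all tested genes that passed in either direction. A link between the ERSE letters and the fold changes was not tested.

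**Figure D4:**
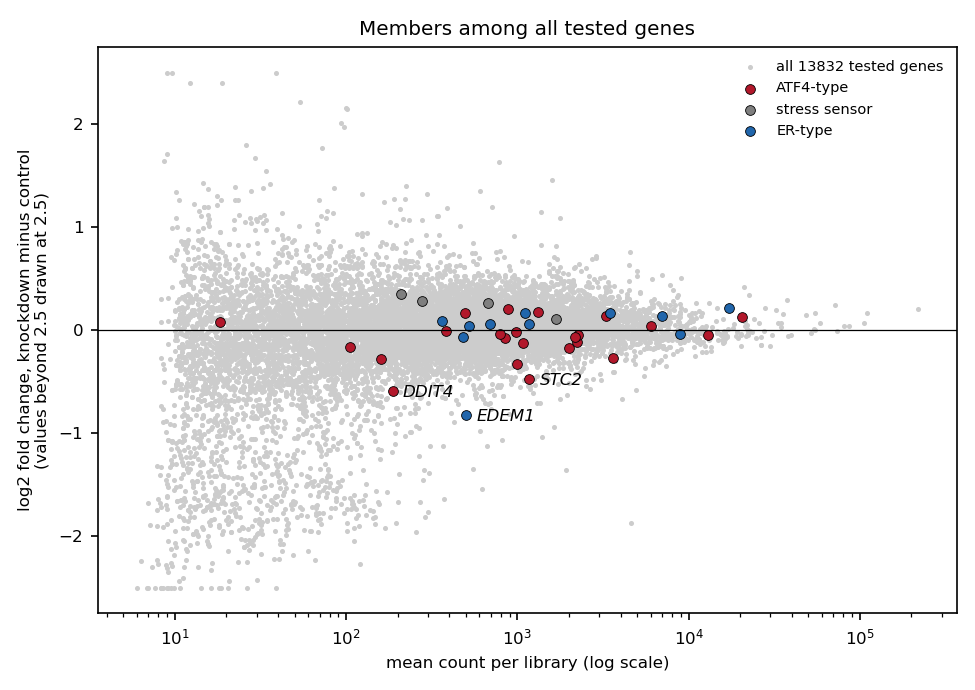
Log2 fold change (y axis) against mean count per library (x axis, log scale) for all 13832 tested genes in grey and the members in colour by type. EDEM1, DDIT4 and STC2 lie below the other members.

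Other genes of the pathways were taken from 4 lists written from general knowledge of each process. Of 18 cytosolic tRNA synthetases, textbook ATF4 targets that charge tRNAs with amino acids, 4 were higher and 2 lower (33.3% past the threshold, below the 38.5% of all tested genes), with a median log2 fold change of 0.01. The lower ones were NARS1 (log2 fold change -0.25, edgeR adjusted p 5.87e-05) and YARS1 (-0.12, 0.0134), and LARS1 (0.17) and VARS1 (0.15) had the smallest p among the higher. Without control replicate 1 or knockdown replicate 2, 2 were higher, and without control replicate 2 or knockdown replicate 1, 1 was lower.

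Of 32 other ATF4 targets, 28 were tested, of which 9 were higher and 5 lower, with a median of 0.03. That is 50% past the threshold, against 38.5% of all tested genes. SQSTM1, the autophagy receptor p62, was at 384.6 ± 4.34 CPM in control against 560.1 ± 6.84 in knockdown (SD, n = 3 each), a log2 fold change of 0.54 (edgeR adjusted p 3.98e-11). VLDLR, a lipoprotein receptor, rose by 0.76 (edgeR adjusted p 4.61e-07). CBS, which takes homocysteine toward cysteine, fell by 1.12 on the log2 scale (edgeR adjusted p 4.75e-09), and ALDH1L2, a mitochondrial folate enzyme, fell by 0.88 (edgeR adjusted p 0.000285). The stress factor gene ATF3, picked with its values in view, had a mean of 4.68 CPM in control against 3.48 in knockdown (log2 fold change -0.43, edgeR adjusted p 0.0562).

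Of 48 other XBP1 and ATF6 targets, all tested, 16 were higher and 12 lower, with a median of 0.04. That is 58.3% past the threshold, against 38.5% of all tested genes and 46.3% of those with a mean of at least 500 counts. GFPT1, the entry enzyme of the hexosamine pathway, and WFS1, an ER membrane protein, rose by 0.51 and 0.43 on the log2 scale (edgeR adjusted p 7.13e-09 and 6.65e-09). KDELR2, which returns ER proteins from the Golgi, and SPCS3, a signal peptidase subunit, fell by 0.27 and 0.20 (edgeR adjusted p 1.25e-06 and 0.000248). HSPA5 (BiP), the master chaperone of the ER and also picked with its values in view, had a mean of 527.7 CPM in control against 606.2 in knockdown (log2 fold change 0.20, edgeR adjusted p 3.99e-05). The count of lower genes was 6, 4 and 7 without control replicates 1, 2 and 3, and 4, 4 and 10 without knockdown replicates 1, 2 and 3.

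The list called eIF2 regulators held mainly subunits and regulators of eIF2. It also held MBTPS1 and MBTPS2, the proteases that cut ATF6. Of its 18 genes, 1 was higher and 2 lower (16.7% past the threshold, below the 38.5% of all tested genes). EIF2B1, a subunit of the exchange factor that eIF2 phosphorylation blocks, fell by 0.25 on the log2 scale (edgeR adjusted p 0.000607). OMA1 and DELE1 form the relay from mitochondria to eIF2 kinases. OMA1 fell by 0.36 (edgeR adjusted p 0.00698) and DELE1 rose by 0.19 (edgeR adjusted p 0.0219), a call that was lost without control replicate 2 (0.159), knockdown replicate 1 (0.0623) or knockdown replicate 2 (0.0935). The count of higher genes of this list was 0 without control replicate 2 or knockdown replicate 2, and 2 without control replicate 3 or knockdown replicate 3.

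**Figure D5:**
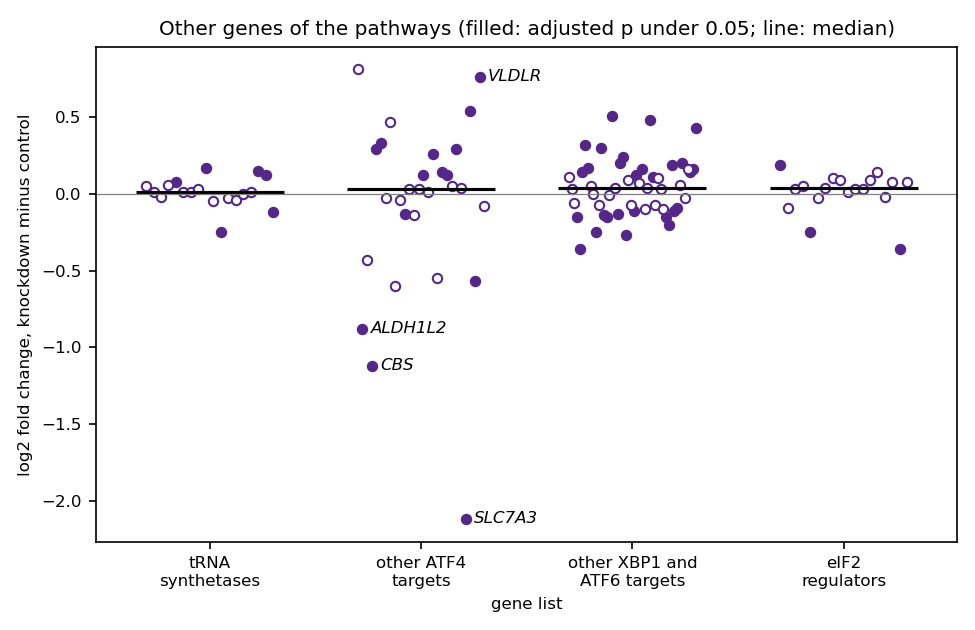
Log2 fold change (y axis, knockdown minus control) of the tested genes of the 4 lists; filled points passed an adjusted p of 0.05 and lines mark medians. Medians lie between 0.01 and 0.04, and CBS, ALDH1L2 and SLC7A3 (-2.12) stand lowest. SLC7A3 was barely expressed, at 0.752 to 1.49 CPM in control and 0.0703 to 0.533 CPM in knockdown.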

How the data were processed

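Total RNA of 6 SW403 samples was sequenced by the authors. The authors deposited whole-number counts per gene symbol, used here as deposited; the number of sample columns not used was 0. Per the submitters' processing notes, the tools included STAR 2.6.1a, Salmon and DESeq2, with build hg19; annotation and strand setting are not given in the sources used here. Groups came from the sample titles.

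The test was edgeR 4.0.16 (R 4.3.3): TMM factors, filterByExpr, quasi-likelihood F-test on group, Benjamini-Hochberg adjustment over all 13832 tested genes, threshold 0.05. Standard errors were derived from the fold change and F. CPM values are scaled by TMM factors. No exact permutation test for single genes can pass the threshold with groups of 3, so p-values come from the fit across all genes. On simulated counts for this comparison (13715 genes run), 83% of 100 genes changed by 0.5 and 98% of 100 changed by 1 on the log2 scale were recovered, with 17 false calls. The 200 changed genes were drawn from above a count floor and are a smaller share than was called in the data. Changes smaller than 0.5 were not simulated, and the median absolute log2 fold change of the members was 0.14.

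Replicates differed beyond counting error (chi-square per degree of freedom 1.41 to 2.86). Values in every library are given for ATF4, DDIT3, XBP1, ATF6, IRS2 and the 3 lowest p-values of each role. From each further list, the 2 genes with the smallest p in each direction among those past the threshold are named with their log2 fold change. The members and lists were chosen with earlier results of these data known. Transcript length and GC content came from 1 canonical GENCODE transcript per gene (95.8% of tested genes, 37 of 38 members). Exon overlaps and gene positions are from GENCODE on GRCh37, possibly another annotation than the authors counted with; promoter windows are from RefSeq on GRCh38.p14. Alternatives were other scalings, filters, tests (DESeq2 1.42.0, limma 3.58.1 voom), thinned counts, a stricter threshold, a replicate block, a length and GC correction, and leaving out each library. One marker gene of the colon epithelium list is not reported here.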

Additional observations from a re-analysis of the deposited data

How the results depend on the processing

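Under 18 alternative settings, 629 of 683 values for the 38 members kept direction and call, 32 lost the threshold, 11 gained it and 11 changed sign. These settings include the main fit read at the stricter threshold, where no direction could change. ATF4, STC2, PPP1R15A, DDIT4, PHGDH, PYCR1, SLC1A5, SLC7A1, ATF6, ERN1, SEL1L, EDEM1, PDIA4, PDIA6 and CANX kept their calls in each of the 18. DDIT4 had no transcript length, so the length and GC correction made no adjustment of its own for this gene. The sign changes were all in genes that did not pass: TRIB3 without a filter (0.0015) and over the fits that left out a library (-0.049 to 0.025), CEBPG and CHAC1 over the latter (-0.044 to 5.8e-06 and -0.057 to 0.25), CHAC1 and SDF2L1 in thinned counts (-0.0041 and -0.016), and SLC7A11 after the length and GC correction (0.0071, also with the replicate block).

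DESeq2's Wald test called 1654 lower genes in all against 2653, 5 lower ATF4-type genes against 8, 1 lower tRNA synthetase, 3 lower XBP1 and ATF6 targets, and 0 higher and 1 lower eIF2 regulators. At an adjusted p of 0.01 these counts were 5 lower ATF4-type genes, 2 higher and 1 lower tRNA synthetases, 3 lower XBP1 and ATF6 targets and 0 higher eIF2 regulators. Higher tRNA synthetases numbered 2 with upper-quartile factors, library size alone or a mean of at least 50 counts. Lower XBP1 and ATF6 targets numbered 7 without a filter. Higher eIF2 regulators numbered 0 with library size alone or thinned counts, 3 without a filter, and 4 after the length and GC correction, with or without the replicate block. The ER-type median was 0.033 with library size alone and 0.087 in thinned counts.

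Over the fits that each left out a library, ATF4-type counts ran from 3 to 5 higher and 5 to 7 lower, tRNA synthetases from 2 to 4 higher and 1 to 2 lower, lower XBP1 and ATF6 targets from 4 to 10, and higher eIF2 regulators from 0 to 2. The ER-type median ran from 0.049 to 0.096 and the sensor median from 0.25 to 0.32. With library size alone, 40.8% of all calls were higher, against 50.2%. The cause of these changes was not tested.

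Same-numbered libraries had deviations correlated at 0.04, -0.01 and -0.10, and not every library correlated best with its own number, so the numbers were not read as pairs. With the replicate block, 4862 genes passed against 5329, CEBPB and PSPH missed the threshold (edgeR adjusted p 0.0525 and 0.064), 2 tRNA synthetases were higher and 7 XBP1 and ATF6 targets lower. The block alone changed no other member's call. Depth limits CHAC1 most, at 0.914 to 1.52 CPM.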
